A study of Rattus norvegicus with 42 samples.

Results

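Interleukins and their receptors were followed across rat liver, brain and lung on Affymetrix arrays. The members were all probe sets whose single platform gene symbol begins with Il and a digit, which gave 64 probe sets of 51 genes among 31042 probe sets of 14217 genes. By role, 23 genes encode ligands, 22 encode receptor chains and 6 encode antagonists or binding proteins. Another 2 probe sets, annotated to Il13ra1 together with its pseudogene, were left out because they name several genes. Where a gene had several probe sets, the one with the highest mean over all arrays stood for the gene.

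The tissues came from 1 untreated animal, and the labels give an age of 9 to 12 weeks. Its labelled RNA (cRNA) was hybridised as pure liver, pure brain or pure lung, or after combining the 3 in known percentages. The 42 arrays formed 14 groups of 3 technical replicates, namely the 3 pure tissues and 11 mixtures. Each mixture is named by its liver, brain and lung percentages: 5/25/70, 70/5/25, 25/70/5, 70/25/5, 45/45/10, 55/20/25, 50/30/20, 55/30/15, 50/40/10, 60/35/5 and 65/34/1. The series title gives as its purpose the testing of statistical deconvolution.

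Interleukins are small secreted proteins by which immune and tissue cells signal to each other over short distances. Most act through receptors built of several chains. A ligand-binding chain is joined by another, often shared between many receptors, that passes the signal on. For most families the signal goes to JAK kinases and STAT factors. For the interleukin-1 and interleukin-17 families it goes to adaptor proteins and NF-kB. In many cells the ligand genes are silent until infection or injury, whereas receptor chains are commonly present beforehand. Soluble antagonists, decoy receptors and binding proteins limit the signal.

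RefSeq promoters on the GRCr8 build were found for 38 of the 51 genes, as 40 windows. Of these, 4 are shown over the 250 bases before the start, all on the minus strand: those of Il1a and Il1b, neighbouring genes of the interleukin-1 ligands, and those of Il2rg and Il1rap, whose probe sets had the largest lung and liver excess described further on. Capitals mark matches to the TATA box letters TATAAA, also where they read TTTATA for the opposite strand, and to the core letters of PU.1, GAGGAA.
Il1a, chr3:136990018-136990267: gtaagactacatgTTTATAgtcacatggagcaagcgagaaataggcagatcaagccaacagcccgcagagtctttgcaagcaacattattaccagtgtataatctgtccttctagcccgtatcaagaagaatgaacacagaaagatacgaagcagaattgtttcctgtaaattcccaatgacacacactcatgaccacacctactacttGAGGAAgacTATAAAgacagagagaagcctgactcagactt
Il1b, chr3:137036582-137036831: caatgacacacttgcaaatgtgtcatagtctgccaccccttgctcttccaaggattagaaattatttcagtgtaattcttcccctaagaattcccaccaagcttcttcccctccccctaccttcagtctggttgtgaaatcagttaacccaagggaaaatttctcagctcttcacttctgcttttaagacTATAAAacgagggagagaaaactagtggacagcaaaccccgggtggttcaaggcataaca
Il2rg, chrX:70439001-70439250: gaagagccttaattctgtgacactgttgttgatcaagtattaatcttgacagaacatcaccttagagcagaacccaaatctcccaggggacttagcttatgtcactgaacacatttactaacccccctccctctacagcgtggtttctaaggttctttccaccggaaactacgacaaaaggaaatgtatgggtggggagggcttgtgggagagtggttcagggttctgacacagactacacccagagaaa
Il1rap, chr11:87704343-87704592: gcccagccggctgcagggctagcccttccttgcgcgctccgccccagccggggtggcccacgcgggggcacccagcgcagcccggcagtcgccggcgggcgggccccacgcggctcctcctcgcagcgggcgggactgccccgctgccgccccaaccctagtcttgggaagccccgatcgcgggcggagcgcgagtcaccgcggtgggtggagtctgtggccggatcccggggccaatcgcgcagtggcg
TATAAA lay 32 to 27 bases before the start of Il1a and 60 to 55 bases before that of Il1b. Neither set of letters occurs in the windows of Il2rg and Il1rap, whose GC contents were 46.4% and 78.4%. Both strands were searched and matches could overlap. TATAAA was present in 8 of the 40 member windows and in 12.9% of all 33469 windows, and GAGGAA in 8 of 40 and 23.3%. The C/EBP letters TTGCNNAA were in 8 of 40 windows and 9.22% of all, and the STAT letters TTCNNNGAA in 2 and 7.67%. TATAAA was found in 5 of 19 ligand windows, 2 of 19 receptor chain windows and 1 of 2 windows of antagonists. A match describes these letters in these windows only.

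The labelled tissues carried their own markers: all 5 liver, all 4 measured brain and all 5 lung marker genes were at least 2-fold higher in their own tissue than in both others, although the albumin gene Alb was also at 12.21 in brain against 14.31 in liver, and the part of this in the interleukin values was not tested. Values are log2 levels after RMA, and array medians lay between 5.48 and 5.83. The median SD between replicate arrays was 0.12 in liver and 0.09 in both other tissues. The replicates are arrays of the same RNA, so p-values measure the spread between arrays and nothing about animals, and the number of arrays limits the precision. In such bulk samples fewer cells of a type and less RNA per cell cannot be told apart. Levels of different probe sets are not compared as amounts of transcript, since probes differ in brightness. The scaling of arrays matters for liver: the median difference of liver minus brain over all probe sets was 0.18 (log2) as deposited. It became 0.42 with array medians set equal, termed median centring here, and -0.66 when arrays were rescaled along the 4 hybridisation controls, termed control-based rescaling. For liver minus lung the median was 0.12, 0.37 and -0.80 in that order. For brain minus lung it was -0.03, -0.02 and -0.11.

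The first question was which members could be told from background. The bound was the 90th percentile of 28 probe sets of smell, pheromone and taste receptor genes in the same tissue, which was 4.61 (log2) for liver, 4.09 for brain and 4.28 for lung. By it, 22 of 64 probe sets, the lead probe sets of 20 genes among them, were near background in all 3 tissues, and 26 probe sets, with the lead probe sets of 20 genes, were above it in all 3. Near background everywhere were 12 of 23 ligand genes (52.2%) and 6 of 22 receptor genes (27.3%), beside 20.1% of all probe sets. Above it everywhere were 6 ligand genes (26.1%) and 13 receptor genes (59.1%), beside 59.3%. The difference between the roles was not tested. Of the 6 antagonists, 2 were near background everywhere and 1 was above it everywhere. Under other bounds the count of 22 probe sets became 11 (the 75th percentile of the same receptors), 9 (the highest B. subtilis control) or 30 (the median of all probe sets). Under these the ligand genes near background numbered 8, 8 and 16 and the receptor genes 2, 1 and 7, with 12.3%, 12.5% and 35.5% of all probe sets.

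The 12 ligand genes near background begin here with Il6, Il10 and Il2. Il6, the inducer of the hepatic acute phase response, was at 2.93, 3.02 and 3.55 on the liver arrays, 2.79, 2.80 and 2.96 on the brain arrays and 3.15, 3.31 and 3.37 on the lung arrays. Il10, which restrains macrophages, had means of 3.37, 2.60 and 2.75 in liver, brain and lung. Il2, the T cell growth factor, was at 3.69, 2.79 and 3.03. None of these values reached the bound of its tissue. Il4 and Il13, neighbouring genes of type 2 responses, and Il5, the eosinophil factor, lay between 3.01 and 3.76 in every tissue. Il3, Il11, Il12b, Il17f, Il23a and Il24 completed the group. The highest mean among the 12 was that of Il12b, the p40 chain of interleukins 12 and 23, at 4.58 in liver against a bound of 4.61. Near-background probe sets still read higher in liver than in brain: all 22 did so, with a median difference of 0.51 (log2), and the chemosensory probe sets had a median difference of 0.34 and the B. subtilis controls of 0.23. The part of this common shift in the liver excess of dim members was not tested.

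**Figure D1:**
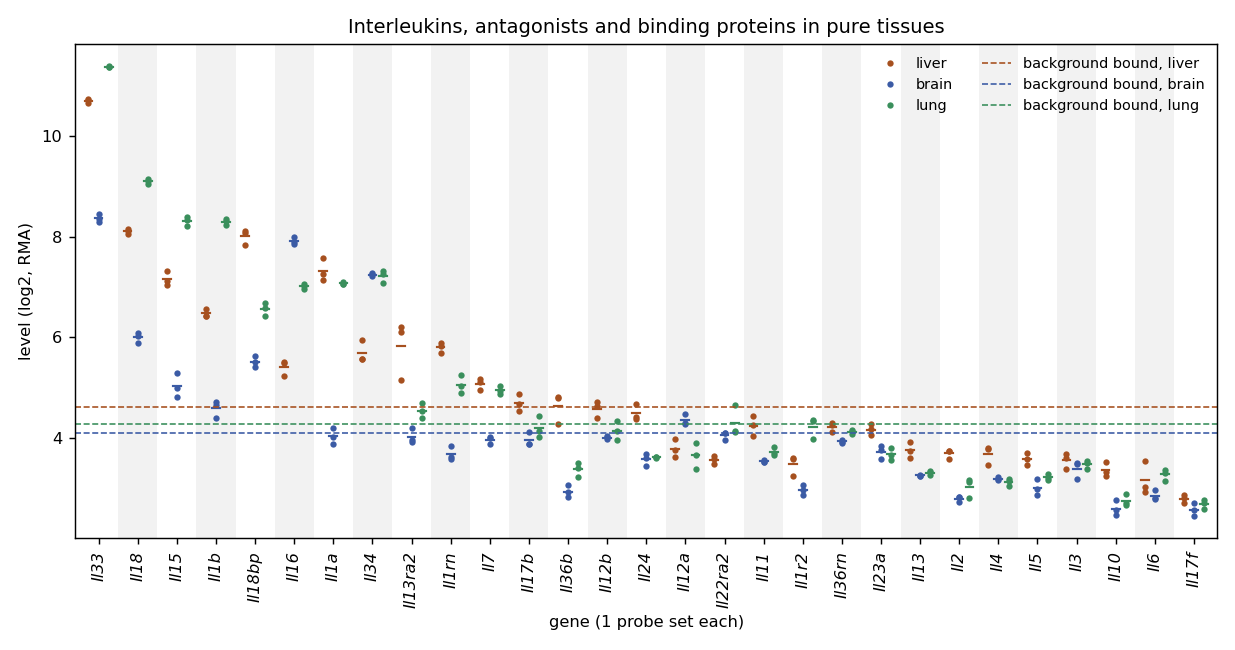
Log2 RMA levels of 23 ligand genes and 6 antagonists or binding proteins in pure liver, brain and lung, with 1 point per array, short bars for means of 3 arrays, and dashed lines at the background bounds of 4.61, 4.09 and 4.28. Il33 is above the bounds in all 3 tissues, Il1b is highest in lung, Il16 is highest in brain, and the genes at the right end are below the bounds in every tissue.

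Among the ligands above background, Il33 encodes a nuclear alarmin that barrier and endothelial cells release on damage. Its lead probe set read 10.71, 10.73 and 10.66 in liver, 8.35, 8.30 and 8.44 in brain and 11.38, 11.37 and 11.36 in lung. The 3 groups did not overlap, with lung first and brain last. The excess was 1.59-fold over liver and 8.04-fold over brain. A second probe set of Il33 gave 9.74 in liver, 6.78 in brain and 9.52 in lung, so the order of liver and lung depended on the probe set while brain was lowest by both. Il18, whose product is matured by caspase-1 like that of Il1b, read 8.06, 8.15 and 8.11 in liver, 5.89, 6.02 and 6.08 in brain and 9.15, 9.04 and 9.10 in lung. Its 1.98-fold excess in lung over liver lay just under the 2-fold limit.

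Il1b, the secreted form of interleukin-1 made by monocytes and macrophages, was enriched in lung, a word used here where limma's adjusted p was under 0.05 and the excess over each of the other tissues reached 2-fold. It read 8.24, 8.31 and 8.35 in lung, 6.42, 6.57 and 6.43 in liver and 4.72, 4.65 and 4.40 in brain. All lung arrays were above all liver arrays, which were above all brain arrays. Il1b was 3.55-fold higher in lung than in liver (adjusted p = 5.62e-20) and 13.1-fold higher than in brain. Its neighbour Il1a, kept mostly inside or on the surface of cells, was at 7.32 in liver and 7.07 in lung, a 1.19-fold difference, and near background in brain at 4.03. Il15, which sustains NK cells and memory T cells, averaged 7.16, 5.04 and 8.31 in liver, brain and lung. It was the other lung-enriched ligand, 2.22-fold over liver, a call that was lost after median centring and after a repeated quantile normalization, with lung above liver by 0.89 and 0.90 (log2).

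Only 2 member genes were called higher in brain than in liver. Il16, a ligand of the CD4 molecule with a larger precursor form in neurons, read 7.89, 7.99 and 7.86 in brain, 7.06, 7.02 and 6.96 in lung and 5.48, 5.50 and 5.24 in liver. Brain arrays were all above lung arrays and lung arrays all above liver arrays. The brain level was 5.68-fold that of liver and 1.86-fold that of lung, the latter under the 2-fold limit. Il34, a second ligand of the colony stimulating factor 1 receptor on which microglia depend, read 7.27, 7.21 and 7.25 in brain, 7.31, 7.07 and 7.26 in lung and 5.95, 5.57 and 5.56 in liver. Brain and lung overlapped and differed by 0.03 (log2, SE 0.09, adjusted p = 0.748), and both were above liver. Brain exceeded liver 2.93-fold. Il12a, the p35 chain of interleukin 12, was above the bound in brain alone, at 4.35 against 3.79 in liver and 3.65 in lung.

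Dim ligands included Il7, the survival factor of lymphocytes, whose lead probe set was at 5.08, 3.97 and 4.95 in liver, brain and lung. Il17b was above the bound in liver alone, at 4.69. Il36b, an epithelial member of the interleukin-1 family, read 4.27, 4.80 and 4.81 in liver, 2.94 on average in brain and 3.38 in lung. It was called enriched in liver, but its liver mean of 4.63 barely passed the bound of 4.61 and 1 of its 3 liver arrays was below it. Against the bounds of lung and brain its excess was at least 1.27-fold and 1.45-fold.

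**Figure D2:**
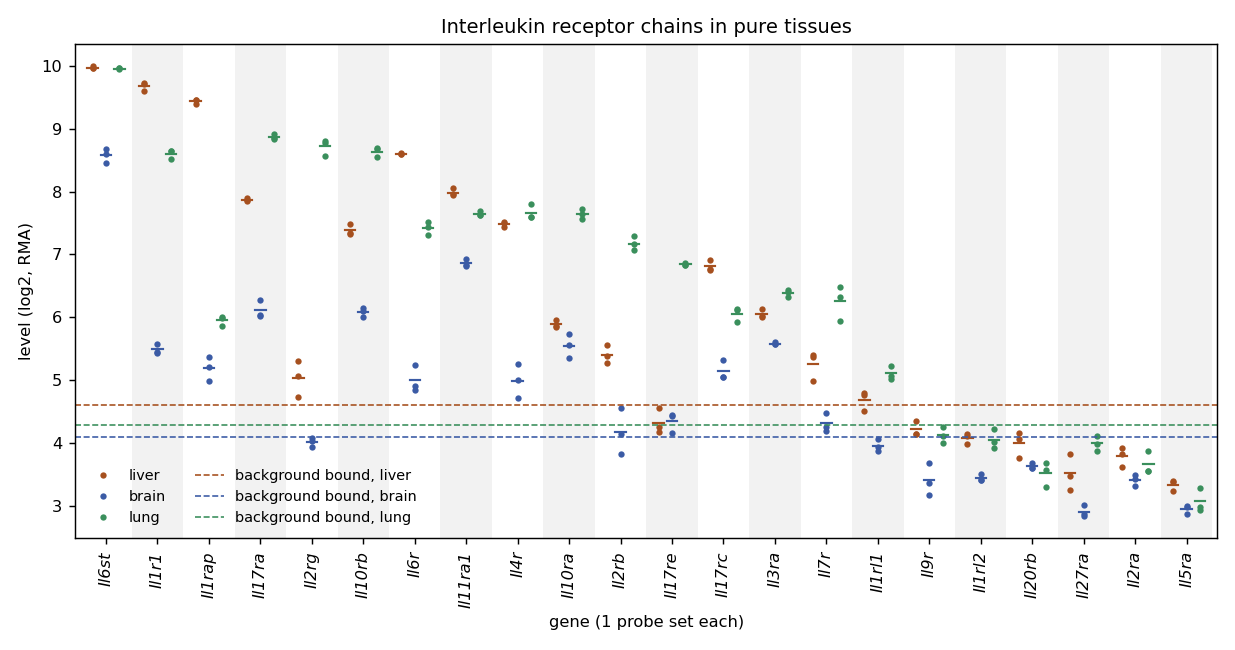
Log2 RMA levels of 22 receptor chain genes in pure liver, brain and lung, with 1 point per array, short bars for means of 3 arrays, and dashed lines at the background bounds. Brain lies lowest for most chains, Il1rap stands out in liver and Il2rg in lung.

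Receptor chains, 22 of the 51 member genes, held most of the enriched members. Il1rap encodes the accessory chain that interleukin-1, interleukin-33 and interleukin-36 receptors share. Its lead probe set read 9.46, 9.46 and 9.40 in liver and 4.99, 5.21 and 5.37 in brain, and averaged 5.95 ± 0.07 (SD, n = 3) in lung. Liver arrays stood far above the others with no overlap. Liver exceeded lung 11.2-fold (adjusted p = 2.89e-29) and brain 19.1-fold. The other Il1rap probe set was dim and went differently, with 4.60 in liver, 4.79 in brain and 4.18 in lung, so the excess was seen by 1 of 2 probe sets. Il1r1, the signalling receptor of interleukin-1, was enriched in liver by all 3 of its probe sets, with folds over lung of 2.11, 3.29 and 5.20. Its lead probe set read 9.60, 9.73 and 9.71 in liver, 5.58, 5.44 and 5.45 in brain and 8.65, 8.52 and 8.64 in lung.

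Of the interleukin-6 family, Il6r encodes the ligand-binding chain through which hepatocytes respond to interleukin-6. It read 8.60, 8.59 and 8.62 in liver, 4.85, 5.24 and 4.90 in brain and 7.52, 7.43 and 7.31 in lung. The 3 groups were separate, with liver 2.28-fold above lung (adjusted p = 1.59e-15) and 12.2-fold above brain. Il6st, the signal transducer gp130 of the whole family, was above background in every tissue by all 4 of its probe sets, of which 1 was highest in liver and 3 in lung, and brain was lowest by all 4. Its lead probe set averaged 9.97, 8.58 and 9.95. Il11ra1, the interleukin-11 receptor, averaged 7.98, 6.86 and 7.65 in liver, brain and lung.

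Lymphocyte receptor chains made up part of the lung-enriched members. Il2rg encodes the common gamma chain of the receptors of interleukins 2, 4, 7, 9, 15 and 21. It read 8.78, 8.57 and 8.81 in lung, 5.06, 5.31 and 4.73 in liver and 4.08, 4.04 and 3.94 in brain. Lung arrays were all above liver arrays, and all brain arrays were below the background bound. Lung exceeded liver 12.9-fold (adjusted p = 2.55e-26), and brain, which had only a bound, at least 24.8-fold. Il2rb, the beta chain for interleukins 2 and 15, was at 5.40, 4.17 and 7.17 in liver, brain and lung, 3.41-fold higher in lung than in liver. Il7r was at 5.25, 4.31 and 6.25 and enriched by both of its probe sets. The lead one was 2.01-fold over liver, and the other, near background in liver at 3.73, at least 2.73-fold. Il2ra, the alpha chain of activated T cells, did not pass the bound anywhere.

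Among the other lung-enriched chains, Il17re, a receptor of epithelial cells for interleukin-17C, read 6.86, 6.84 and 6.84 in lung, 4.55, 4.17 and 4.26 in liver and 4.44, 4.16 and 4.43 in brain. Lung was separate from both others, which overlapped. Since liver was near background, the excess over it was at least 4.69-fold, taken against the liver bound of 4.61. All such least folds here are taken against the bound of the dim tissue. The excess of Il17re was 5.65-fold over brain. A second probe set gave at least 3.92-fold over liver. Il10ra, the ligand-binding interleukin-10 chain, was 3.39-fold higher in lung than in liver (7.65 against 5.89), although its second probe set had 4.75 and 4.73 and was not enriched. Il10rb, shared with other receptors of that family, was 2.37-fold higher in lung than in liver. Il17ra, shared by several interleukin-17 receptors, averaged 8.87 in lung and 7.87 in liver and just met the 2-fold limit. Replicate numbers follow accession order and only name arrays. The calls nearest the 2-fold limit were fragile: Il17ra was lost without liver replicate 1 or 2 or lung replicate 1, 1 Il7r probe set without liver replicate 3 or lung replicate 2 or 3, Il17ra and 1 Il7r probe set after median centring and after quantile normalization, and Il10rb after median centring. Il18 joined the lung-enriched members without liver replicate 2 or lung replicate 2. Receptors with no enrichment but above background in all 3 tissues were Il4r, Il11ra1, Il17rc, Il3ra and Il6st.

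Of the 6 antagonists or binding proteins, 2 were enriched in liver and 0 in brain or lung. Over all genes, with 1 probe set each, the shares were 9.61% in liver, 11.7% in brain and 11.5% in lung. Both liver calls, of Il18bp and Il13ra2, were lost with control-based rescaling. Il18bp, which binds and neutralises interleukin-18, read 7.84, 8.08 and 8.11 in liver, 5.63, 5.41 and 5.50 in brain and 6.59, 6.68 and 6.42 in lung. No groups overlapped, and liver was 2.73-fold above lung (adjusted p = 4.07e-18) and 5.64-fold above brain. Il1rn, the interleukin-1 receptor antagonist, was at 5.80 in liver and 5.06 in lung and near background in brain at 3.68. Il13ra2, a decoy for interleukin-13, was 2.42-fold higher in liver than in lung, with liver arrays at 6.11, 5.15 and 6.20, the widest spread of any member in a pure tissue (SD 0.58). Its lowest liver array was still above the highest lung array, 4.70. The interleukin-1 decoy Il1r2 averaged 4.23 in lung, just under the bound. Il22ra2, a soluble interleukin-22 binder, averaged 4.30 there, just over it. Il36rn, the interleukin-36 receptor antagonist, was near background everywhere.

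Set against all probe sets, members were more often high in liver and lung than in brain. Of 64 probe sets 29 (45.3%) were called higher in liver than in brain, against a background of 14.6% of all probe sets, and 29 (45.3%) higher in lung than in brain, against 15.9%. In the opposite direction 2 (3.12%) were higher in brain than in liver, against 18.9%, and 0 higher in brain than in lung, against 15%. By limma's adjusted p alone 3 had brain above lung, namely Il12a, Il16 and the second Il1rap probe set, and by the unadjusted p 3. Between liver and lung 8 (12.5%) were higher in liver, against 10.8%, and 13 (20.3%) higher in lung, against 17.2%, shares near those of all probe sets. By role, 11 of 22 receptor genes, 7 of 23 ligand genes and 3 of 6 antagonists were higher in liver than in brain. For lung over brain the counts were 13, 5 and 3.

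Enriched in liver were 8 probe sets of 6 genes (12.5%, against 7.28% of all probe sets): Il1rap, Il18bp, Il13ra2, Il36b, Il6r and Il1r1. Enriched in lung were 11 of 9 genes (17.2%, against 8.95%): Il2rg, Il17re, Il1b, Il2rb, Il10ra, Il10rb, Il15, Il7r and Il17ra. Enriched in brain were 0 (against 11.5%) by limma with the fold limit, and 2 without it (Il12a and Il16). Of the 9 lung genes 7 are receptor chains, which make up 22 of the 51 member genes. Among the 23 ligand genes 2 were enriched in lung, and 12 were near background in all 3 tissues. The difference between the roles was not tested. Counted without a test, all 3 arrays of liver lay above all arrays of the other tissues for 25 members (39.1%, against 29.6% of all probe sets), those of brain for 2 (3.12%, against 23.7%) and those of lung for 21 (32.8%, against 22.7%). Dim probe sets also read highest in liver: 19 of the 22 members near background everywhere and 25 of 28 chemosensory probe sets did so. All 27 B. subtilis control probe sets did too. The part of this shift in the liver count was not tested. The median difference of members was 0.85 (log2) for liver minus brain, against 0.18 over all probe sets, 0.12 for liver minus lung, equal to that of all, and -0.82 for brain minus lung, against -0.03.

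Scaling moved the calls of liver. With control-based rescaling 18 members were higher in liver than in brain and 5 in brain, and liver minus lung gave 2 and 23 in place of 8 and 13. After median centring the liver and lung counts were 10 and 9. The members' excess over the median of all probe sets moved less, at 0.67 for liver minus brain as deposited, 0.67 after centring and 0.65 with control-based rescaling. With the latter only Il1rap and 1 Il1r1 probe set stayed enriched in liver, and Il13ra2, Il18bp, Il36b, Il6r and the other Il1r1 probe sets lost the call. All 11 lung-enriched probe sets kept it.

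**Figure D3:**
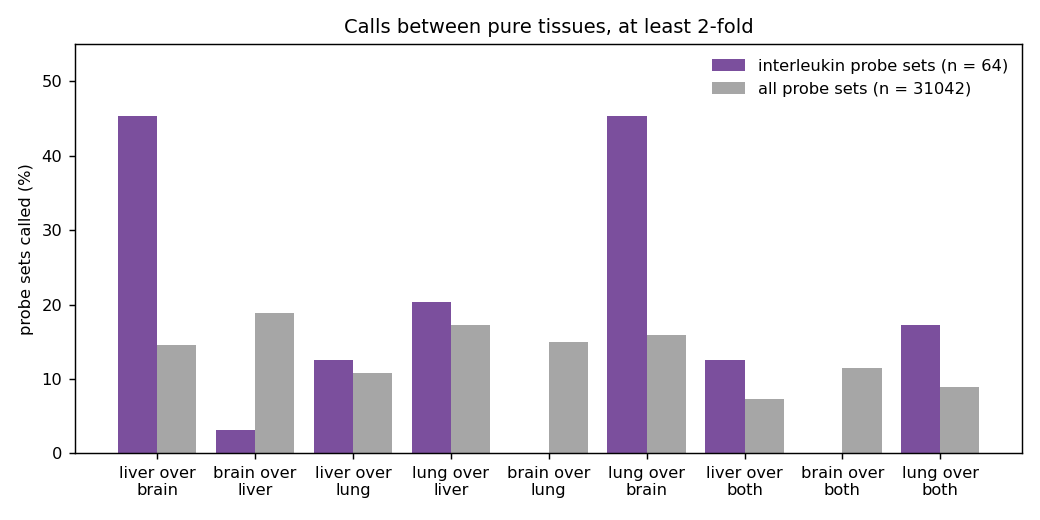
Percent of probe sets called with an adjusted p below 0.05 and a 2-fold difference or more (bars from 0) for each direction between pure tissues and for enrichment over both others, for 64 interleukin probe sets and all 31042. The interleukin bars reach 45.3% for liver over brain and for lung over brain, against 14.6% and 15.9%, and are at 0 for brain over lung.

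Ligands and receptors were then set side by side. Of 21 measured pairs of a ligand or antagonist with a receptor, decoy or binding protein, 3 had both members above background in all 3 tissues: Il1b with Il1r1, Il1b with Il1rap, and Il18 with Il18bp. In 4 pairs both were above it in liver and lung but not in brain, namely Il1a with Il1r1, Il1rn with Il1r1, Il33 with Il1rl1 and Il7 with Il7r. The second Il7 probe set, however, was near background in all 3 tissues (4.37, 3.20 and 4.22). The second Il1rap probe set was near background in liver and lung (4.60 and 4.18) and above it in brain (4.79). Likewise 1 of the 3 Il1r1 probe sets was near background in brain (3.64). Il1rl1, the interleukin-33 receptor also called ST2, was at 4.69 in liver and 5.10 in lung and near background in brain at 3.95. Of its liver arrays 1, at 4.51, was under the bound, and its second probe set was near background in all 3 tissues (3.72, 3.26 and 3.58). In 13 pairs the ligand was near background everywhere. In 9 of these the receptor was above background in all 3 tissues, beside 59.1% of receptor genes and 59.3% of all probe sets. They were Il6 with Il6r and Il6st, Il10 with Il10ra and Il10rb, and Il4 with Il4r. Likewise Il3 with Il3ra, Il11 with Il11ra1, Il2 with Il2rb and Il17f with Il17rc belonged here. Il6 and Il10 each stand in more than 1 of these pairs. Il2rb barely passed in brain, at 4.17 (SD 0.37) against a bound of 4.09. Both members were near background everywhere for Il2 with Il2ra and Il5 with Il5ra. Il4r, at 7.49, 4.99 and 7.66 in liver, brain and lung, Il3ra, at 6.06, 5.58 and 6.39, and Il17rc, at 6.81, 5.14 and 6.06, were the remaining receptors of such pairs.

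Several members lie next to each other in the GRCr8 gene order with 0 protein-coding genes between them, and neighbours did not always share a pattern. Il1a and Il1b differed in that lung exceeded liver 3.55-fold for Il1b while Il1a was 1.19-fold higher in liver. Il17re was enriched in lung, and its neighbour Il17rc was highest in liver. Il1r1 was enriched in liver, while its neighbour Il1rl2, the interleukin-36 receptor, was near background in all 3 tissues. Il4 and Il13 were both near background.

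Genes of the same pathways with other names were counted from lists. Over genes with 1 probe set each the background of enrichment was 9.61% in liver, 11.7% in brain and 11.5% in lung. Of 8 measured receptor partners, 2 were enriched in liver, 0 in brain and 1 in lung. Lifr, which pairs with gp130, was at 9.86 in liver and 32.7-fold above the next tissue, and Sigirr, a negative regulator of interleukin-1 receptors, was 3.40-fold higher there, whereas the interferon-lambda receptor Ifnlr1 was called in lung, with liver near background and an excess over it of at least 1.97-fold. Csf2ra, with levels of 6.59, 4.46 and 7.35, was not enriched. Of 12 related cytokines 1 was enriched in each tissue: Csf1 in liver (3.02-fold), Cntf in brain (2.33-fold) and Csf2 in lung (at least 1.89-fold over liver, which was near background). Tgfb1, at 5.53, 4.20 and 6.52, fell short of the limit with 1.98-fold, and 5 of the 12 were near background everywhere.

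Of 10 JAK and STAT genes 1 was enriched in liver (Stat5b, 2.22-fold) and 1 in lung (Stat4, at least 2.07-fold over liver, which was near background). Stat3, the mediator of gp130 signals, was at 9.25, 7.19 and 9.01 in liver, brain and lung, and Tyk2 at 8.50, 6.62 and 7.60. Of 7 SOCS inhibitors, Socs2 was enriched in liver (2.41-fold) and Socs7 in brain (2.67-fold), while Socs5 read 7.92, 9.72 and 9.67 and Cish 6.73, 4.24 and 5.75. The list of 16 genes named for the interleukin-1 pathway included Traf3ip2, the adaptor of interleukin-17 receptors. It had 0 genes enriched in liver or brain and 4 in lung. These were Nfkbia (3.49-fold over the next tissue), Traf3ip2 (3.48-fold), Nfkb1 (2.62-fold) and Nfkb2 (2.61-fold). The interleukin-1 adaptor Myd88 was at 8.84, 5.65 and 8.38. Of 4 measured genes listed for the maturation or release of interleukins 1 and 18, 3 were enriched in lung, where Il1b was too. These were Casp1 (5.74-fold), the adaptor Pycard (4.99-fold) and Casp4 (3.41-fold). The pore former Gsdmd was enriched in liver (2.05-fold). Over these lists together 6, 2 and 10 genes were enriched in liver, brain and lung, and 1, 2 and 19 with control-based rescaling.

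Markers of cells that carry interleukin receptors moved with the lung-enriched members. All 6 leukocyte genes, 9 of 10 T and NK cell genes, 2 of 3 B cell genes, 3 of 4 neutrophil genes and all 5 endothelial genes were enriched in lung. The summed level of the leukocyte list (log2 of the summed linear values) ranged from 13.24 to 13.29 over the lung arrays, 10.18 to 10.22 in liver and 9.87 to 9.92 in brain. That of the T and NK cell list ranged from 10.50 to 10.61, 8.01 to 8.12 and 7.12 to 7.32. The B cell list ranged from 8.54 to 8.58, 6.99 to 7.06 and 5.35 to 5.84, the neutrophil list from 10.40 to 10.53, 6.71 to 7.23 and 5.46 to 5.54, and the endothelial list from 13.35 to 13.41, 10.43 to 10.56 and 9.91 to 9.93. Macrophage genes were divided, with Cd163 (9.43-fold) and Cd14 (3.60-fold) enriched in liver and Lyz2 (23.0-fold) and Csf1r (2.24-fold) in lung, of 8 measured. Their summed level ranged from 11.77 to 11.78 in liver, 9.67 to 9.80 in brain and 14.01 to 14.14 in lung. The lung sum was mostly Lyz2, at 13.87 there. The median level of the macrophage list was 8.13 in liver, 5.22 in brain and 8.79 in lung. Of 6 mast cell genes 3 were enriched in lung, with summed levels of 8.90 to 8.98 in lung, 7.39 to 7.54 in liver and 6.99 to 7.08 in brain. Cxcr2 of the neutrophil list and Ms4a2 of the mast cell list were near background in all 3 tissues. The part of these cells in the interleukin differences was not tested.

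The mixtures gave 33 further arrays. Exchanging liver for lung at 25% brain (5/25/70 against 70/25/5) raised 24 of 64 member probe sets (37.5%) and lowered 17 (26.6%) at an adjusted p under 0.05, against backgrounds of 30.6% and 30.7% (61.3% in either direction). Il2rg read 8.07, 7.99 and 8.04 in 5/25/70 and 5.58, 5.41 and 5.50 in 70/25/5, a rise of 2.54 (log2, SE 0.10, adjusted p = 4.00e-21) with no overlap. Il1b rose by 1.80 and Il17re by 1.73. Il1rap fell by 2.68 (SE 0.08, adjusted p = 2.24e-25), from 8.53, 8.51 and 8.73 to 6.11, 5.86 and 5.77, and Il18bp fell by 0.93 and Il6r by 0.89, both lost as calls with control-based rescaling (-0.46 and -0.42). The 2 Il1r1 probe sets that do not lead fell further than these, by 1.28 and 1.09. The balance of 24 and 17 was 21 and 21 after median centring, 24 and 12 after quantile normalization, 22 and 10 with the 5th percentile subtracted and 27 and 3 with control-based rescaling.

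Exchanging liver for brain at 5% lung (25/70/5 against 70/25/5) raised 2 members (3.12%, against 30.9%) and lowered 31 (48.4%, against 22.1%; 53% of all probe sets changed). The 2 that rose were Il16, by 0.63 (SE 0.06, adjusted p = 2.27e-10), and Il34, by 0.45 (SE 0.09, adjusted p = 6.49e-05), the same genes that were higher in pure brain than in pure liver. Il16 read 7.60, 7.59 and 7.55 in 25/70/5 and 6.92, 6.89 and 7.05 in 70/25/5, which did not overlap. Il1rap fell by 1.64, Il1r1 fell by 1.59 and Il6r fell by 1.58, the largest decreases among members. With control-based rescaling 5 rose and 10 fell.

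Exchanging brain for lung at 70% liver (70/5/25 against 70/25/5) raised 35 members (54.7%, against 25.4%) and lowered 3 (4.69%, against 21.4%). Of all probe sets 46.8% changed. Il2rg rose by 1.92, Il17re by 1.47 and Il1b by 1.40. Those that fell were Il34 (fell by 0.31, adjusted p = 0.00428), Il4 (fell by 0.25, adjusted p = 0.0407) and Il16 (fell by 0.22, adjusted p = 0.00432). Il34 did so although pure brain and pure lung differed by 0.03 (log2, limma's adjusted p = 0.748). The Il16 call was lost after quantile normalization (-0.16, limma's adjusted p = 0.0553). Il4 was near background in all pure tissues, and its call was lost without replicate 1 or 3 of 70/25/5 (adjusted p = 0.0708 and 0.197) or replicate 2 or 3 of 70/5/25 (0.0624 and 0.18). With control-based rescaling 13 rose and 0 fell.

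The smallest step of lung was from 1% to 5% (60/35/5 against 65/34/1), in which liver fell from 65% to 60% and brain went from 34% to 35%, so that lung was not the only share that changed. It raised 2 members (3.12%, against 2.21% of all probe sets) and lowered 0 (against 0.287%), shares near the background of 2.5% in either direction. By limma's unadjusted p 4 rose and 4 fell. Il2rg read 5.25, 5.09 and 4.99 with 5% lung and 4.43, 4.71 and 4.53 with 1%, without overlap, a rise of 0.55 (log2, SE 0.10, adjusted p = 6.29e-04). Il1b read 5.51, 5.55 and 5.51 against 5.02, 5.23 and 5.19, a rise of 0.38 (SE 0.08, adjusted p = 0.0055). The call of Il1b was lost without replicate 1 of 65/34/1 (adjusted p = 0.0807) and in a fit of these 2 groups alone (0.0603), and both calls were lost with control-based rescaling (Il2rg 0.14, adjusted p = 0.585, and Il1b -0.04, adjusted p = 0.882), a setting that moved the median of all probe sets in this pair from -0.02 to -0.43.

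**Figure D4:**
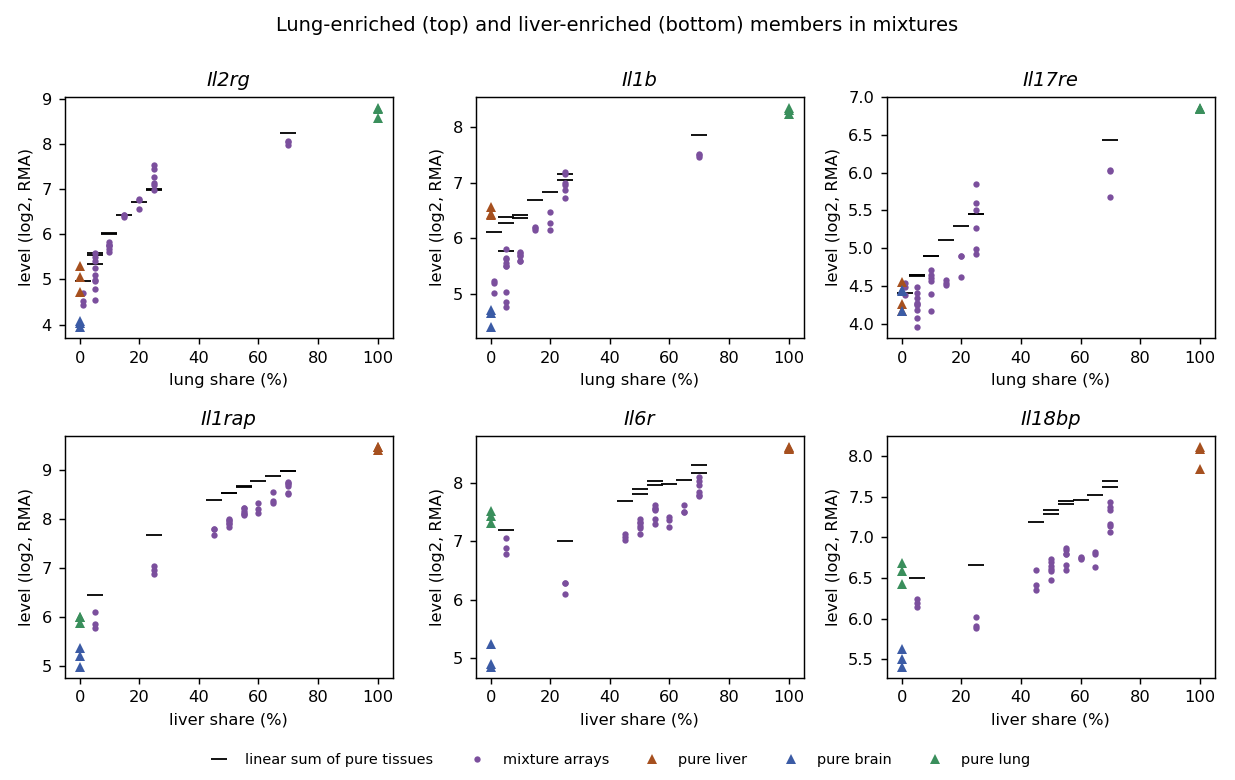
Log2 RMA levels of 6 enriched members against the percentage of lung (top row) or liver (bottom row) in the sample, with 1 point per mixture array, triangles for pure arrays and dashes for the linear sum of the pure tissues in each mixture. Il2rg lies on both sides of its dashes, and Il1rap, Il6r and Il18bp lie below theirs in every mixture.

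Each mixture level was set against a linear sum, in which the pure means, unlogged, are weighted by their percentages. Members lay below that sum, with a median of -0.35 (log2) over the mixtures against -0.22 for all probe sets. At 1.5-fold or more 0 members lay above it (against 0.325% of all probe sets) and 8 below (12.5%, against 4.84%, and 5.17% in either direction), by limma's variances. Those 8 were both probe sets of Il1a, 2 of 3 of Il1r1, and those of Il1rn, Il13ra2, Il36b and Il18bp, and all had their highest level in liver. Il1a averaged -0.90 (SE 0.06) and -1.08 (SE 0.06) by its 2 probe sets, Il1rn -0.81 (SE 0.08), Il13ra2 -0.75 (SE 0.09), Il36b -0.68 (SE 0.08) and Il18bp -0.62 (SE 0.05). In 25/70/5 the lead probe set of Il1a read 4.61, 4.78 and 4.69, where the sum gave 5.86, and in 45/45/10 it read 5.59, 5.56 and 5.34, where the sum gave 6.53. The lead probe set of Il1r1 averaged -0.51 (SE 0.04) and was not called. Il16 was the only member with a mean above the sum, at 0.22 (SE 0.03), under the 1.5-fold limit.

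The departure varied with the tissue of origin and the mixture. Liver-enriched members had medians between -0.81 (65/34/1) and -0.37 (5/25/70). Lung-enriched members had -0.06 in 70/5/25 and between -0.51 and -0.21 in the others. Il2rg, whose departure was -0.59 in 25/70/5 and 0.40 in 70/5/25, changed sign between mixtures. Among all liver-enriched probe sets at levels from 6 to 8 (log2) in liver, 409 of 539 lay below the sum by at least 1.5-fold, as did both members in that range, and the medians were -0.69 and -0.97. Up to 6 it was 168 of 292 and 2 of 2 members, from 8 to 10 it was 310 of 851 and 1 of 4 members, and above 10 it was 10 of 577 with 0 members. Of all lung-enriched probe sets at 6 to 8 and 8 to 10, 57 of 1076 and 11 of 909 did so, and 0 of 6 and 0 of 5 members. With control-based rescaling, and likewise against a share-weighted mean of log2 levels, 2 members remained below: the second Il1a probe set and 1 of Il1r1. That mean of logs cannot exceed the log2 of the linear sum, which raises every departure or leaves it equal.

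**Figure D5:**
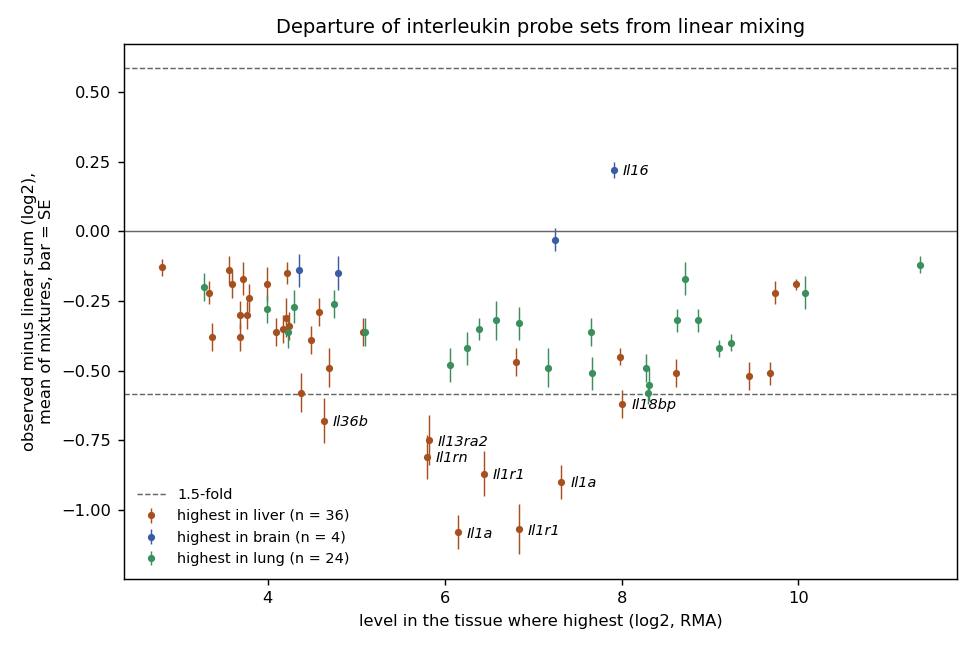
Observed minus summed log2 level, averaged across 11 mixtures, for 64 interleukin probe sets (bars, SE), against the log2 level in the tissue where each was highest, coloured by that tissue, with dashed lines at 1.5-fold. Il1a and 2 Il1r1 probe sets lie lowest, and Il16 is the only one above 0.

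Regressing the 11 mixture means on the 3 percentages gave tissue differences without the pure arrays, with no fold limit. By limma 43 of 64 members differed between liver and brain (against 60.8% of all probe sets), 37 between liver and lung (59.9%) and 46 between brain and lung (60.6%). All members called between pure tissues were found again with the same sign: 31 of 31, 21 of 21 and 29 of 29. Over all probe sets the corresponding shares were 97.7%, 92.5% and 98.5%. Of the liver and brain differences 41 were higher in liver and 2 in brain (28.6% and 32.1% of all probe sets). Between liver and lung 15 were higher in liver and 22 in lung (29.2% and 30.7%), and between brain and lung 4 in brain and 42 in lung (28.9% and 31.7%).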

How the data were processed

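Pure and mixed rat tissue RNA was measured on Affymetrix arrays. The authors deposited 1 log2 value per probe set and array, made with RMA per the submitters' processing notes and the series' design text (version: not given in the sources used here). The array medians were close but not equal, and an uneven scaling of tissues with unlike RNA content is possible. Tests ran without 57 controls among the 31099 probe sets. Gene names came from the platform annotation, with 20826 probe sets naming 1 gene, 436 several and 9780 none listed, and all 64 member symbols were equal in the GRCr8 gene table.

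A single model (limma 3.58.1 in R 4.3.3) covered the 42 arrays and estimated each group's mean, with no pseudocount and Benjamini-Hochberg adjustment over 31042 probe sets. Pure tissues were called at adjusted p under 0.05 and 2-fold, mixture pairs without a fold limit, and departures, with errors by the delta method, at 1.5-fold. The mixtures-only regression used linear means and limma's variance trend. The steps were tested on simulated data. Members and lists were chosen with earlier results of these data known. Named were enriched members (up to 10 per tissue), the 5 brightest per tissue, members of ligand and receptor pairs, genes whose probe sets disagree, the largest departures, the 3 largest calls each way per mixture pair over 1 probe set per gene, up to 4 genes per list, and further members for completeness. Alternatives covered array scaling, subtraction of the 5th percentile, the variance trend, arrays in the fit, dim probe sets, probe sets per gene, the fold limit, the bound, the mixing scale and each array left out.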

Additional observations from a re-analysis of the deposited data

How the results depend on the processing

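With control-based rescaling, departures from the linear sum numbered 2, enriched probe sets 2 in liver and 18 in lung, and calls 18 for liver over brain, 5 for brain over liver, 2 for liver over lung and 23 for lung over liver. The same rescaling gave 15 changed members in 25/70/5 against 70/25/5 (5 up, 10 down), 3 down in 5/25/70 against 70/25/5, 0 in 60/35/5 against 65/34/1 and 13 in 70/5/25 against 70/25/5 (13 up, 0 down), and 1 liver-enriched and 19 lung-enriched genes of the signalling lists. Median centring gave 23 departures, 7 lung-enriched probe sets and 11 liver-enriched signalling genes, and quantile normalization 13 departures. With the 5th percentile subtracted there were 17 departures, all below the sum, 1 brain-enriched member, 4 for brain over liver, 1 for brain over lung and 10 down in 5/25/70 against 70/25/5. The cause was not tested. Against the mean of log2 levels 4 departed, 2 above and 2 below. With 1 probe set per gene 5 departed, since fewer were counted, and without dim probe sets 9 were down in 5/25/70 against 70/25/5. With only the arrays of the groups compared 1 member rose in 60/35/5 against 65/34/1. Without the fold limit, a weaker requirement, 26, 2 and 18 members were enriched in liver, brain and lung. The 26 in liver included members near background in all 3 tissues, among them Il2, Il4, Il5 and Il10. Calls without the limit numbered 61 between liver and brain (57 and 4) and 48 between liver and lung (27 and 21). Between brain and lung they numbered 50 (3 and 47). Near background were 11 at the 75th percentile bound and 9 at the highest B. subtilis control.

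Leaving out 1 array at a time gave 8 to 9 departures from the linear sum (all below, 0 above), 8 liver-enriched, 0 brain-enriched and 10 to 11 lung-enriched members, and 20 to 24 near background. Calls numbered 27 to 30 between brain and lung (0 higher in brain), 30 to 32 between liver and brain (28 to 30 higher in liver, 2 in brain) and 20 to 21 between liver and lung (8 higher in liver, 12 to 13 in lung). The pair 25/70/5 against 70/25/5 gave 31 to 35 (2 up, 29 to 33 down), 5/25/70 against 70/25/5 gave 36 to 42 (23 to 25 up, 13 to 17 down), 70/5/25 against 70/25/5 gave 34 to 39 (31 to 36 up, 2 to 3 down) and 60/35/5 against 65/34/1 gave 1 to 3 (0 down). From mixtures alone 44 to 46 differed between brain and lung, 41 to 46 between liver and brain and 35 to 38 between liver and lung

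Called values of single members (tissue contrasts, departures, and the largest of each mixture pair, 1 probe set per gene) were counted once per alternative setting. Of these counts 4241 kept their direction and their side of the threshold, 61 fell below the threshold and 1 reversed. The reversed one was Il1b in 60/35/5 against 65/34/1, at -0.04 with control-based rescaling. Most settings left out 1 array, which cannot change a difference between groups that do not hold it. The number kept was therefore largely fixed in advance and does not measure robustness. No paired analysis was possible because the labels carry no replicate numbers, and the numbers used here follow accession order. Probe sets near background have only a bound, so small differences among dim ligands could not be read, and all arrays share the RNA of 1 animal.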
